A study of Mus musculus with 3 samples.

Results

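The genes described here are 8 annexins and 2 of their S100 partners, 10 genes in all out of 23032 gene symbols with a transcript length. They were listed by symbol (Anxa1, Anxa2, Anxa3, Anxa4, Anxa5, Anxa6, Anxa7, Anxa11, S100a6 and S100a10), as calcium-binding proteins of matrix vesicles and membranes, and all of them were found in the deposited tables. The study sequenced ribosomal RNA-depleted total RNA of IDG-SW3 cells, an immortalised mouse line that carries a conditional T antigen and differentiates in osteogenic medium towards osteocyte-like cells. Its single group held 3 libraries, replicates 1, 2 and 3, from biological triplicates at day 35 of differentiation, all of which had received 100 nM parathyroid hormone (PTH) for 24 h. Vehicle libraries were not analysed here, so no effect of PTH was measured, and each gene is set against a fixed level or against another gene of the same library.

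Annexins are a family of proteins with a repeated core that binds acidic membrane phospholipids when calcium is present. S100 proteins are small calcium sensors that mostly act as dimers by binding target proteins, and a dimer of S100a10 joins a pair of Anxa2 molecules in a complex beneath the plasma membrane. In mineralizing tissues annexins, Anxa5, Anxa2 and Anxa6 above all, are constituents of matrix vesicles, the membrane-bound particles in which the first mineral forms.

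Levels are given in RPKM, computed here as counts per kilobase of transcript, scaled to the total count of the library as RPKM always is, and every level is on that linear scale unless log2 is named. Although the deposited tables carry RPKM in their names, their values are integers and were treated as raw counts. The libraries held 35195518, 37299517 and 45240005 counts in replicates 1, 2 and 3, and the 10 genes took 0.159%, 0.143% and 0.156% of them. Of the markers of the labelled cell type, 7 of 8 osteoblast genes were above 1 RPKM, whereas 2 of 6 osteocyte genes were (Pdpn and Phex). The remaining osteoblast gene, Runx2 (3 rows), was unresolved at a mean of 1.25 RPKM. The osteocyte genes Dmp1, Mepe, Fgf23 and Sost were unresolved. Dmp1 had 77, 115 and 6 counts, with the fewest in replicate 3, and Mepe 20, 18 and 52, with the most there. Fgf23 had 11, 21 and 26 counts, and Sost 2, 0 and 0. Above 1 RPKM were also Lyz2 among 8 myeloid and osteoclast markers, Kdr among 6 endothelial markers, Fabp4 and Adipoq among 6 adipocyte markers, and 0 of 6 epithelial markers. For comparison, 43.2% of all genes tested were above 1 RPKM, with symbols without counts left out. The summed level ranged from 12.6 to 14.9 RPKM for the myeloid list, from 2.93 to 3.38 for the endothelial list, from 11.1 to 17.3 for the adipocyte list and from 1.25 to 1.59 for the epithelial list. Listed at 0 in all libraries were the myeloid markers Itgam, Acp5 and Calcr, the endothelial markers Pecam1 and Emcn and the adipocyte marker Plin1, each with several rows in the files. The part of other cell types in the levels below was not tested, and in bulk RNA fewer cells that express a gene and less RNA per cell cannot be told apart.

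By RPKM the S100 partners were the most abundant of the 10 genes and Anxa2 and Anxa1 led the annexins. The 10 genes ran from 883 RPKM to no counts at all. Each gene was tested against 1 RPKM with edgeR's quasi-likelihood test, adjusted over the 20998 genes with a count. Of the 10 genes, 8 were called above 1 RPKM, 1 was called below and 1 had no counts. Of all genes tested, 43.2% were called above and 13.4% below. The 8 genes called above are all those that had 1 row in the files, and among symbols with 1 row 45.4% were called above. Both remaining genes, Anxa6 and Anxa7, had 2 rows, and among symbols with several rows 25% were called above. The median level was 70.1 RPKM over the 10 genes and 0.497 RPKM over all genes.

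**Figure D1:**
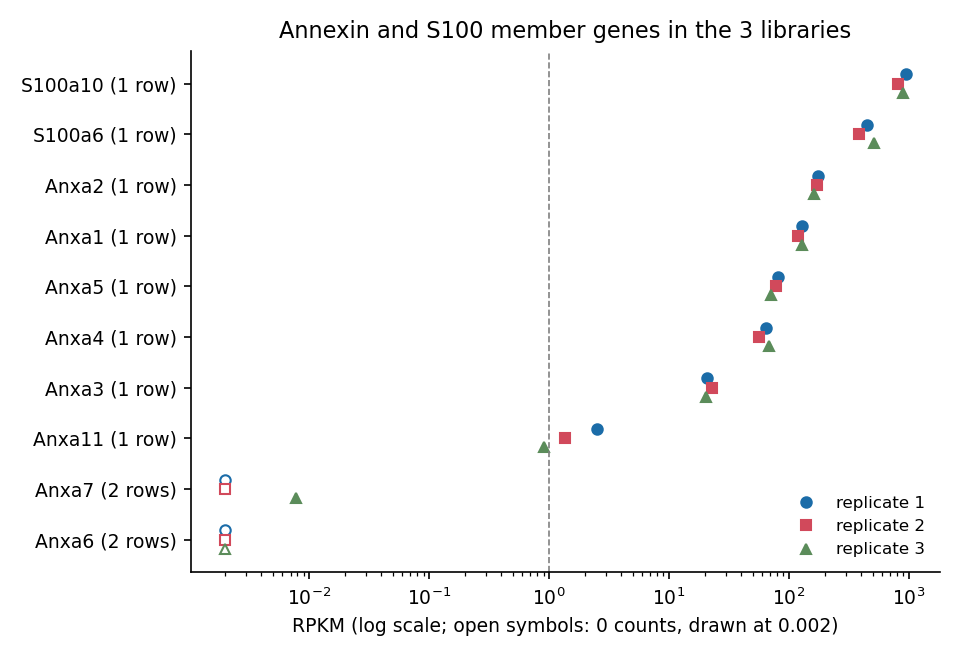
RPKM of the 10 genes on a log axis, with 1 symbol for each library and open symbols for 0 counts; the dashed line marks 1 RPKM. The symbols of the first 7 genes lie close together between 20.4 and 941 RPKM, those of Anxa11 spread around 1 RPKM, and Anxa7 and Anxa6, with 2 rows each, lie at the left.

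S100a10, the S100 protein that binds Anxa2 and is locked in a calcium-independent active shape, stood at 941, 816 and 892 RPKM in replicates 1, 2 and 3 (883 ± 63.3, SD, n = 3). That placed it at rank 87 of all 23032 genes. S100a6, also called calcyclin, a partner of several annexins, followed at 452, 384 and 510 RPKM (449 ± 63.3, SD, n = 3), rank 168. The ranges of these genes did not overlap, and S100a6 was lowest in replicate 2 and highest in replicate 3.

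Anxa2, the annexin of the S100a10 complex, stood at 175, 170 and 163 RPKM (169 ± 6.11, SD, n = 3), rank 444. Anxa1, known for its part in resolving inflammation, stood at 129, 118 and 129 RPKM (125 ± 6.48, SD, n = 3). Every library had more Anxa2 than Anxa1, and the ranges did not overlap. Anxa5, the annexin used as a probe for exposed phosphatidylserine and a main protein of matrix vesicles, stood at 81.8, 78.4 and 70.8 RPKM (77.0 ± 5.64, SD, n = 3). Anxa4, an annexin abundant in secretory cells, stood at 65.0, 56.8 and 67.6 RPKM (63.1 ± 5.67, SD, n = 3). Anxa3 was lower, at 20.7, 22.9 and 20.4 RPKM (21.3 ± 1.36, SD, n = 3). All of these lay far above 1 RPKM in each library, with the lowest value at 20.4.

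Sequences before the start sites of the 2 most abundant annexins are shown because both carry a TATAAA element, alone among the matched promoters of the 10 genes. They come from RefSeq on build GRCm38.p6, which is not the authors' build, and run from 250 bases before the start to 50 bases from it. The table had promoters for 7 of the 10 genes, and those of Anxa3, Anxa6 and S100a10 were not matched. Capitals mark the matches of 4 motifs searched on both strands: the TATA element TATAAA, the AP-1 letters TGANTCA, the GC box GGGCGG and the cyclic AMP response element TGACGTCA.
Anxa2, chr9:69453433-69453732, plus strand: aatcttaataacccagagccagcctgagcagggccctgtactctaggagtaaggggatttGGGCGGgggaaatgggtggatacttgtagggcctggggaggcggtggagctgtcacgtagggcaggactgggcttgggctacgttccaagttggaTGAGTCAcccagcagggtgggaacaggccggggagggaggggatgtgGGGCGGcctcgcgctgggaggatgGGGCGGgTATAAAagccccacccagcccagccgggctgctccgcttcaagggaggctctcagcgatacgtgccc
Anxa1, chr19:20390622-20390921, minus strand: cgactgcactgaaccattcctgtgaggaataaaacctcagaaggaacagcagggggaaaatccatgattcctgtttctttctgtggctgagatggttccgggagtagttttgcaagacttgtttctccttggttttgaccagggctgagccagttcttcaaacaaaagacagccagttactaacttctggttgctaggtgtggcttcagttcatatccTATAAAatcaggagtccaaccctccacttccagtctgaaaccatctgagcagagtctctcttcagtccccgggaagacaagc

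In Anxa2 the TATAAA match begins 17 bases before the start and in Anxa1 32 bases before it. Of the 9 promoters of the 7 genes, 2 held TATAAA, against 13.6% of all 32851 promoters in the table. TGANTCA was in the Anxa2 promoter alone of the 9 and in 7.81% of all promoters. GGGCGG was in 5 of the 9 and in 35.7% of all, and TGACGTCA was in 0 of the 9 and in 1.79% of all. These are matches of letters in a window, and no binding was measured.

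Pairs of partners were then compared within libraries, with the level of the reference gene in the same library as the offset of the edgeR fit. Against Anxa2, S100a10 was higher in 3 of 3 libraries, at 5.38, 4.79 and 5.48 times its RPKM (5.22 ± 0.376, SD, n = 3). The fitted log2 ratio was 2.38 (SE 0.08). S100a6 stood at 2.58, 2.25 and 3.13 times Anxa2 (2.66 ± 0.445, SD, n = 3; log2 ratio 1.41, SE 0.08, edgeR adjusted p = 4.34e-96). In counts, not per kilobase, S100a10 had 2.16, 1.92 and 2.20 times the counts of Anxa2, since its transcripts are 581 bases long against 1447. S100a6, at 597.5 bases, had 1.07, 0.930 and 1.29 times the counts of Anxa2, and so fewer in replicate 2. Its lead over Anxa2 in RPKM therefore rests largely on transcript length. Both S100 genes were thus called above Anxa2, as were 1.87% of all genes, and the 6 other genes tested were called below it, as were 97.6%. With 200 bases taken off each transcript for fragment ends, the S100a10 and S100a6 folds over Anxa2 became 6.85 and 3.44, and with the longest transcripts 4.42 and 2.17.

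Among the annexins the order Anxa2, Anxa1, Anxa5, Anxa4, Anxa3 and Anxa11 held within each of the 3 libraries. Anxa1 stood at 0.736, 0.692 and 0.795 times Anxa2 (fitted log2 ratio −0.43, SE 0.08, edgeR adjusted p = 7.11e-07). Anxa5 stood at 0.468, 0.460 and 0.435 times Anxa2 (fitted log2 ratio −1.14, SE 0.09, edgeR adjusted p = 2.645e-31). The closest neighbours were Anxa5 and Anxa4, with Anxa4 at 0.795, 0.724 and 0.955 times Anxa5. The log2 difference of Anxa5 over Anxa4 was 0.29 ± 0.20 (SD, n = 3) and passed the test (edgeR adjusted p = 0.0145). Leaving out replicate 1 (adjusted p = 0.145) or replicate 2 (adjusted p = 0.266) ended that call, as it ended with DESeq2 (adjusted p = 0.0586) and with limma on log2(RPKM + 0.1) (adjusted p = 0.167). The levels of these neighbours are therefore not read as different. Taking Anxa5 as reference, 4 of the 8 genes tested were called above it and 4 below, against 4.03% and 94.6% of all genes. The count below Anxa5 was 2 without replicate 1 or replicate 2, and the 4 include Anxa4 and also Anxa7, which had a single count.

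**Figure D2:**
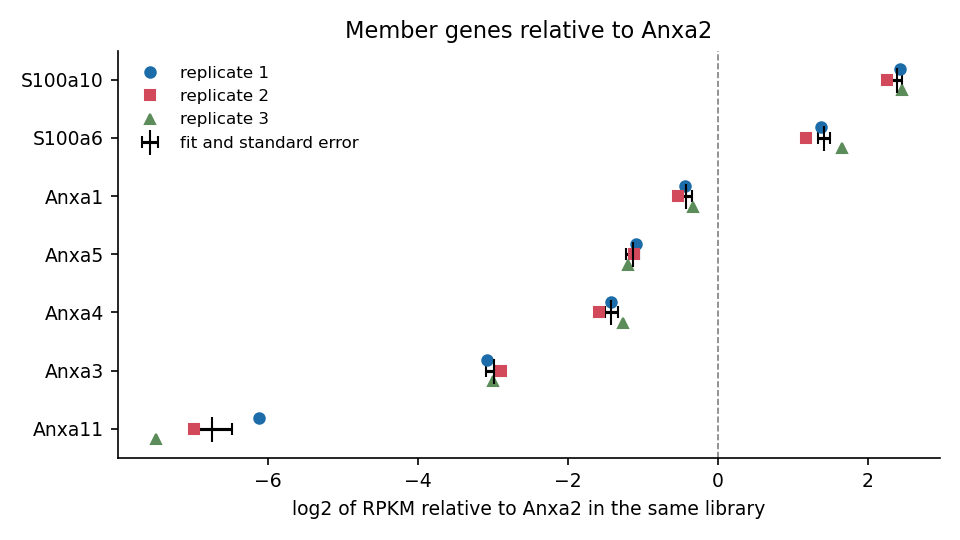
Log2 ratio of RPKM to Anxa2 in the same library for the 7 other genes with 1 row, with 1 symbol for each library and the fitted ratio with its standard error as a black bar. S100a10 and S100a6 lie to the right of the dashed line at equal levels, the annexins lie to the left, and Anxa11 has the widest spread.

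Against S100a6, S100a10 stood at 2.08, 2.13 and 1.75 times its level (1.99 ± 0.206, SD, n = 3; log2 ratio 0.99, SE 0.13, edgeR adjusted p = 5.2e-18). It was the 1 member called above S100a6, as were 0.686% of all genes. The 7 others tested were called below it, as were 99.1% of all genes. The fold of Anxa3 below Anxa2 depended on the transcript taken: Anxa3 stood at 0.118, 0.134 and 0.125 times Anxa2, but at 0.424 times with the shortest transcripts.

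Anxa11, an annexin with a long disordered amino-terminal region that binds S100a6 and the calcium sensor encoded by Pdcd6, was low and varied between libraries. It had 178, 101 and 82 counts, or 2.52, 1.35 and 0.902 RPKM (1.59 ± 0.834, SD, n = 3). The exact 95% Poisson intervals were 2.16 to 2.91, 1.10 to 1.64 and 0.717 to 1.12 RPKM, so replicate 1 lay above both others by more than counting error. Such intervals cover counting error only. Its SD of log2 RPKM was 0.75, where the median over 1417 genes of similar level (1 to 2 RPKM) was 0.37 and 13.3% of them had an SD at least as large. Anxa11 was called above 1 RPKM (log2 level 0.66, SE 0.27, edgeR adjusted p = 0.0189). With replicate 1 left out the log2 level was 0.17 and the call ended (edgeR adjusted p = 0.695). DESeq2, limma on log2(RPKM + 0.1), limma on log2(RPKM + 1) and the longest transcripts ended it too, with adjusted p of 0.597, 0.223, 0.146 and 0.145.

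Relative to its partner S100a6, Anxa11 stood at 0.00557, 0.00351 and 0.00177 times the level, 277-fold lower in the fit (log2 ratio −8.11, SE 0.29). In the GENCODE transcripts, 83.8% of the 50-base windows of Anxa11 occur in no other gene, and Anxa11os overlaps it on the opposite strand. How the authors treated reads with several matches or overlapping genes is not given in the sources used here, and the effect on Anxa11 was not tested. For Anxa1 and Anxa5, S100a6 and S100a10 the share of such windows was 100%, and for Anxa2, Anxa3 and Anxa4 it was 98.6%, 98.2% and 98.6%, with Gm44036 overlapping Anxa4 on the opposite strand.

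Anxa6, an annexin with a doubled core and a known matrix vesicle protein, had 0 counts in each library, and Anxa7, also called synexin, had 0, 0 and 1. A count of 0 allows up to 3 counts, or up to 0.0344, 0.0324 and 0.0267 RPKM for Anxa6, for counting error only. Anxa7 was called below 1 RPKM (edgeR adjusted p = 0.0404) on that single count, and leaving out replicate 1 (adjusted p = 0.256) or replicate 2 (adjusted p = 0.27) ended the call. Each gene has 2 rows, and 31.2% of the 2248 symbols with 2 rows had 0 or 1 count over the 3 libraries, against 5.68% of the 19739 symbols with 1 row. Their sequences are distinct from other genes, with 100% of windows unique for both. These values are therefore not read as absence of Anxa6 or Anxa7, no fold is given for either, and the comparison of Anxa6 with Anxa5 could not be made.

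**Figure D3:**
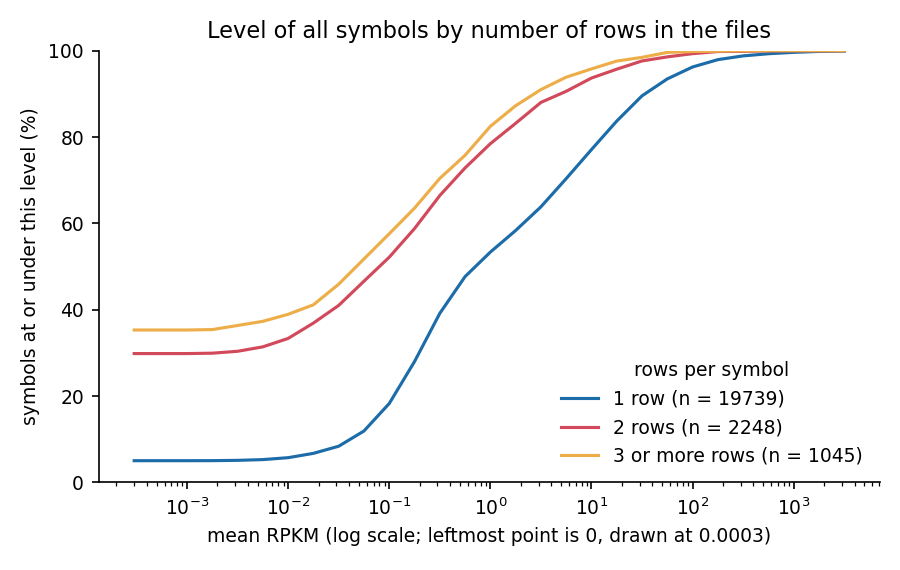
Share of all symbols at or under a mean RPKM (log axis), drawn separately for symbols with 1 row, 2 rows and 3 or more rows in the files. At 0 RPKM the curves start at 29.9% for 2 rows and 35.3% for 3 or more, and at 5.04% for 1 row (Anxa6 and Anxa7 belong to the 2-row class).

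Outside Anxa11 and S100a6, the genes with 1 row varied little between libraries. The SD of log2 RPKM was 0.05 for Anxa2, 0.08 for Anxa1, 0.09 for Anxa3, 0.10 for S100a10, 0.11 for Anxa5, 0.13 for Anxa4 and 0.21 for S100a6. Over the 6419 genes of 5 RPKM or more the median was 0.14, and 6 of these 7 genes lay under it, with S100a6 above. The 6419 genes were not matched to the 7 by level, and the part of level in this was not tested. Replicate 3 had the lowest Anxa2, Anxa3, Anxa5 and Anxa11 and the highest Anxa1, Anxa4 and S100a6. It differed little from replicate 1 for Anxa1 (129.5 against 128.7 RPKM) and Anxa3 (20.4 against 20.7 RPKM). Replicate 2 had the lowest S100a6, S100a10, Anxa1 and Anxa4.

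By the root mean square difference of log2 RPKM over the 3 libraries, the protein-coding genes nearest in level to Anxa2 were Arl4c (0.0448) and Maged1 (0.069). Nearest to Anxa5 were Hnrnph1 (0.0398) and Uap1 (0.0471), and nearest to S100a6 were Wbp5 (0.0325) and Nsg1 (0.114). For S100a10 they were Tpm4 (0.0404) and Rpl15 (0.0548), a tropomyosin gene and a ribosomal protein gene. The measure compares levels and says nothing of shared control.

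Of the 4 other annexins, 1 was called above 1 RPKM, 1 was unresolved and 2 were listed at 0. Anxa8 stood at 11.7, 9.26 and 10.1 RPKM (10.3 ± 1.26, SD, n = 3) and was called above 1 RPKM. Anxa13, an annexin of intestinal epithelium, had 19, 5 and 0 counts and was unresolved. Anxa9 and Anxa10 were listed at 0, with 2 rows each.

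Of the 14 other S100 genes, 6 were called above 1 RPKM, 6 were unresolved and 2 (S100a14 and S100z) were listed at 0, with a median of 0.597 RPKM. That share above is near the 43.2% over all genes tested, which leaves out symbols without counts (9075 of all 23032 symbols were above). The median is near the 0.497 RPKM over all symbols. S100a4, a marker of fibroblasts and motile cells, was close to S100a6, at 569, 436 and 628 RPKM (544 ± 98.6, SD, n = 3). It stood at 1.26, 1.14 and 1.23 times S100a6, a difference that passed the test (log2 ratio 0.27, SE 0.13, edgeR adjusted p = 0.0256) but turned to −0.09 with the shortest transcripts. That call was also lost with both limma fits, with the correction for GC content and without replicate 1 or replicate 3, so neither gene is read as the higher.

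S100a13, which takes part in the release of leaderless growth factors, stood at 79.9 ± 10.6 RPKM, S100a16 at 59.9 ± 11.3 and S100a1 at 51.1 ± 5.81 (SD, n = 3 each). S100b, better known from glia and cartilage, stood at 6.20, 4.25 and 8.19 RPKM. S100a11, the usual partner of Anxa1, was low, at 3.56, 3.93 and 3.42 RPKM (64, 75 and 79 counts), 121-fold below S100a6 in the fit (log2 ratio −6.92, SE 0.38). Of its 50-base windows 58.9% occur in no other gene, the lowest share of the annexin and S100 genes after S100a4 (52.6%, shared with the overlapping Gm42674), and the effect of shared reads was not tested. S100a8 and S100a9, the subunits of calprotectin in neutrophils and monocytes, had 19, 0 and 10 counts and 2, 0 and 0 counts. S100g, the calbindin of intestinal calcium uptake, had 4, 8 and 0.

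Along chromosome 3, where RefSeq places 13 of these S100 genes, levels of neighbours differed widely. High and low genes came in turn from S100a16 to S100a7a but not over the whole row (S100a1 and S100a13 were both high, and S100a7a, S100a8, S100a9 and S100a11 all low). S100a14, between S100a13 and S100a16, was listed at 0 but has 3 rows, so its value is not read as absence. In chromosomal order on build GRCm38.p6, S100a3 stood at 0.671 RPKM, S100a4 at 544, S100a5 at 0.264, S100a6 at 449 and S100a7a at 0.380. The 3 low genes of this stretch shared a library pattern. S100a3 had 3, 3 and 46 counts, S100a5 had 1, 0 and 14, and S100a7a had 5, 3 and 56, so each was highest in replicate 3. These genes were singled out after their values were seen, and no fold is given on so few counts. Of 2348 symbols with 1 row and at most 5 counts in replicates 1 and 2, 18.8% had 10 or more counts in replicate 3 and 2.30% had 40 or more. S100a10 and S100a11 lie next to each other at the end of the order, at 883 and 3.64 RPKM.

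**Figure D4:**
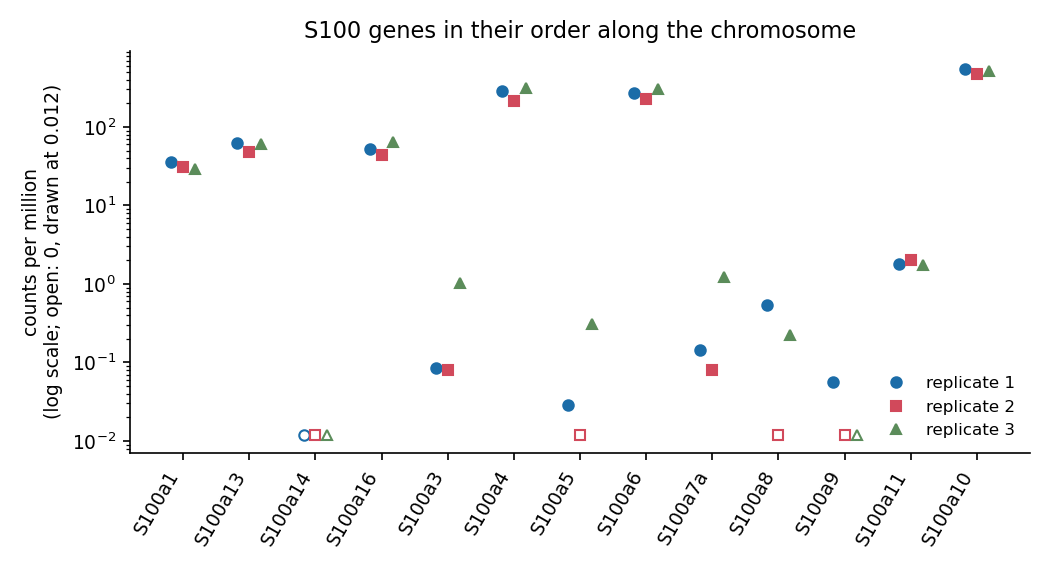
CPM (counts scaled to the library total), on a log axis, of 13 S100 genes in their order along the chromosome, with 1 symbol for each library and open symbols for 0 counts. S100a4, S100a6 and S100a10 stand above 200 in all libraries. S100a3, S100a5 and S100a7a, each next to S100a4 or S100a6 in the order, are low, with replicate 3 the highest.

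Genes whose products act with annexins and S100 proteins were mostly expressed. Of the 20 partners listed, 12 were called above 1 RPKM, 1 was below and 7 were unresolved, with a median of 5.37 RPKM (over all genes, 43.2% were above and the median was 0.497 RPKM). Ahnak, the giant scaffold protein that binds the Anxa2 and S100a10 complex, stood at 703, 804 and 682 RPKM (730 ± 64.9, SD, n = 3). It exceeded Anxa2 in 3 of 3 libraries, at 4.02, 4.72 and 4.19 times its level. Ahnak has 2 rows and transcripts of very different length. The fitted log2 ratio was 2.107 both with the rows summed and with the highest row alone. The fold was 2.15 with the mean over its rows and 49.1 with the shortest transcripts.

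The same complex serves as a surface receptor for plasminogen and its activators. Plat, the tissue plasminogen activator gene, stood at 176, 151 and 170 RPKM, Plau (urokinase) at 51.7, 49.3 and 48.4, and its receptor gene Plaur at 14.2, 14.5 and 16.3. Plg, plasminogen itself, had 25, 4 and 14 counts and was unresolved. The activators and the receptor were thus above 1 RPKM in each library, and plasminogen was below it in each.

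Among the partners of S100a6 and Anxa11, Cacybp (calcyclin-binding protein) stood at 82.5, 69.7 and 72.8 RPKM and Pdcd6, the calcium sensor ALG-2, at 40.6 ± 6.60 (SD, n = 3). Pdcd6 was at 0.0885, 0.0893 and 0.0930 times S100a6. Its relative Pef1 stood at 5.59 ± 0.882 RPKM, Sugt1 at 5.15 ± 0.223 and the Ras regulator gene Rasa1, which binds Anxa6, at 25.6 ± 0.400 (SD, n = 3 each). Pdcd6ip (3 rows) was called below, but not with DESeq2 (adjusted p = 0.5277), and Sri, the sorcin gene (2 rows), was unresolved. The receptor genes were low: Fpr1 and Fpr2, receptors for Anxa1 peptides, had 15, 18 and 0 and 0, 4 and 34 counts, and Ager, a receptor for several S100 proteins, had 25, 5 and 11.

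**Figure D5:**
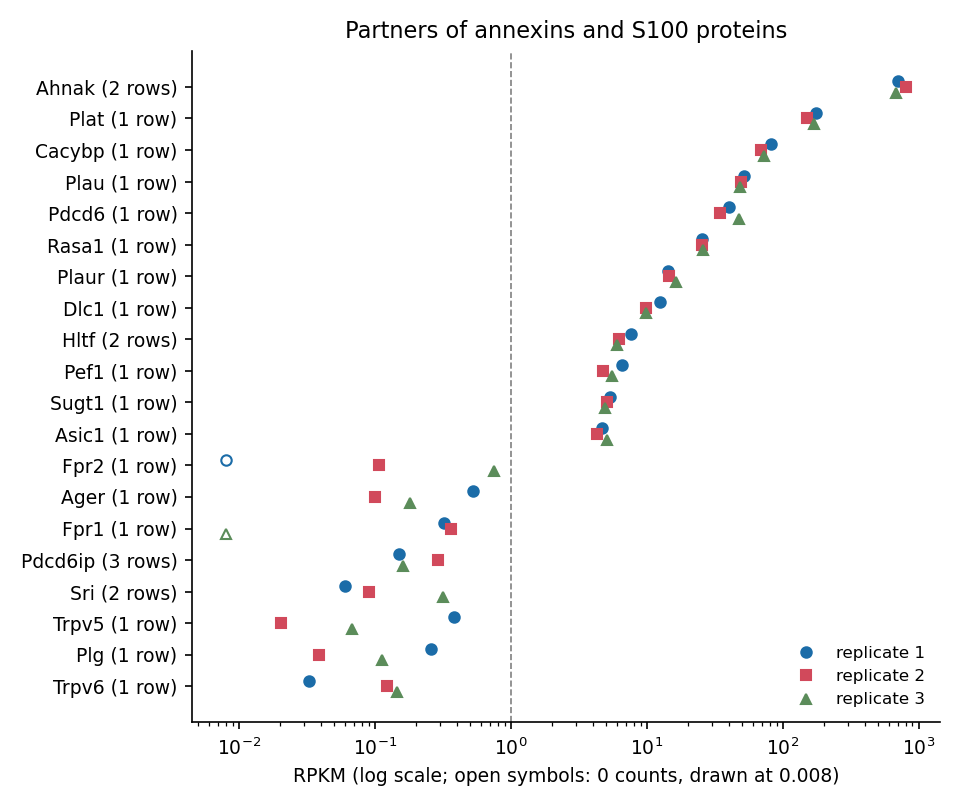
RPKM of the 20 partner genes on a log axis, with 1 symbol for each library, open symbols for 0 counts and a dashed line at 1 RPKM. A gap separates the 12 genes called above 1 RPKM from 8 genes whose symbols all lie under the line.

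Other genes for proteins that bind membranes in a calcium-dependent way were called above 1 RPKM about as often as all genes. Of 15 copine, ferlin and extended synaptotagmin genes, 6 were called above 1 RPKM, 4 below, 2 were unresolved and 3 were listed at 0 (Cpne1, Cpne6 and Otof, each with several rows), with a median of 0.122 RPKM. Over all genes tested 43.2% were above and 13.4% below, with symbols without counts left out of these shares. The median over all symbols was 0.497 RPKM. The calls below (Cpne4, Cpne5, Dysf and Esyt3) fell from 4 to 0 with DESeq2, to 2 without replicate 1 and to 1 without replicate 2. Esyt2, a tether between endoplasmic reticulum and plasma membrane, stood at 90.6 ± 1.92 RPKM, between Anxa1 and Anxa5. Myof (myoferlin), of the membrane repair machinery, stood at 41.0 ± 1.53, and its relative Dysf (dysferlin, 2 rows) had 21, 23 and 19 counts. Its call below ended with DESeq2 (adjusted p = 0.3313) and without replicate 2 (edgeR adjusted p = 0.05039).

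The annexins stood beside strongly expressed mineralization genes. Of 13 genes of matrix vesicle mineralization found, 10 were called above 1 RPKM, 2 below (Smpd3 and Enpp6) and 1 was unresolved, with a median of 132 RPKM. Over all genes 43.2% were above and 13.4% below. The calls below fell from 2 to 0 with DESeq2 or without replicate 1, and to 1 without replicate 2 or with the shortest transcripts. The matrix protein genes Sparc and Ibsp stood at 6409 ± 408 and 2052 ± 415 RPKM, and the metalloproteinase genes Mmp13, Mmp2 and Mmp14 at 664 ± 72.1, 285 ± 18.6 and 174 ± 6.82 (SD, n = 3 each). Spp1, the osteopontin gene, stood at 136 ± 5.82 RPKM. Alpl, the phosphatase of vesicle membranes, stood at 145, 131 and 120 RPKM, 1.77, 1.66 and 1.69 times Anxa5. The phosphate transporter genes Slc20a1 and Slc20a2 stood at 21.3, 21.3 and 20.4 and at 9.29, 8.51 and 9.55 RPKM, and Enpp1, which makes pyrophosphate, at 3.08 ± 0.486 (SD, n = 3), above 1 RPKM in edgeR but not with DESeq2 (adjusted p = 0.06521). Phospho1, the phosphatase that frees phosphate from phosphocholine inside vesicles, had 5, 14 and 1 counts, and Smpd3, the sphingomyelinase, 56, 32 and 4, with the fewest of both in replicate 3.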

How the data were processed

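Ribosomal RNA-depleted, strand-preserving RNA-seq libraries of 3 replicates were used. The deposited values are whole numbers per transcript row, read as raw counts with no normalization, although the authors' file names say RPKM. Per the submitters' processing notes TopHat and build mm9 were used; for the counting tool, the annotation, strand and multiple matches the rule is not given in the sources used here. Rows of a symbol were summed. Of 25410 symbols, 23032 (90.6%) had a length, the median over GENCODE M21 basic transcripts (GRCm38), 20840 directly and 2192 through RefSeq synonyms, holding 96.3% to 96.4% of counts.

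Across all genes, edgeR 4.0.16 (R 4.3.3) two-sided quasi-likelihood F tests, adjusted by Benjamini-Hochberg (called at 0.05), compared each level with 1 RPKM or with Anxa2, Anxa5 or S100a6 in the same library. "Above" and "below" are genes past the threshold, and "unresolved" the rest. Only the test against 1 RPKM was checked on simulated data, with the same dispersion for all genes. The simulation did not cover the tests against a reference gene, or changed genes expected to have few counts at 1 RPKM. DESeq2 1.42.0 and limma 3.58.1 served as alternatives. The p-values measure the spread among replicates and do not cover a bias that all libraries share. Intervals cover counting error only.

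The 10 genes, the lists and the tests were chosen with earlier results of these data known. Values are given for the 10 genes, all other annexin and S100 genes, up to 6 genes called above 1 RPKM in each of the partner, membrane-binding and matrix vesicle lists by highest mean level, and the 2 genes nearest in level to each of 4 members. Alpl was set against Anxa5 by design. Other named genes (Plaur, Pef1, Sugt1, the partners without a call above 1 RPKM, Dysf, the phosphate transporters, Enpp1, Phospho1 and Smpd3) were chosen by role after their values were seen.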

Additional observations from a re-analysis of the deposited data

How the results depend on the processing

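The counts over the 10 genes, 15 ratios, the levels of the annexin, S100, partner, membrane-binding and matrix vesicle genes and the counts of these lists were recomputed under 15 alternatives: other treatments of rows, transcript lengths and library sizes, a minimum mean count of 10, DESeq2, limma with pseudocounts of 0.1 and 1, a correction for GC content and leaving out each library. Among the 10 genes, the counts above 1 RPKM, below Anxa2 and below S100a6 stayed within 1.5 times the values given. The count below Anxa5 was 4 and ranged from 2 to 3 with a library left out, at 2 without replicate 1 or replicate 2. The ratios of S100a10, S100a6 and Anxa5 to Anxa2 and of Anxa11 and S100a10 to S100a6 kept their direction and call in all 15. Over all genes, 2815 were called below 1 RPKM, against 268 with DESeq2, 9106 and 9995 with limma at pseudocounts of 0.1 and 1, and 1224 and 912 without replicate 1 and replicate 2; the cause was not tested. The count above 1 RPKM ran from 7468 to 9339. Values that changed direction were the log2 ratio of S100a4 to S100a6 (−0.091 with the shortest transcripts) and the unresolved log2 level of S100a3 against 1 RPKM (0.023 with 200 bases taken off each length). Of the values for single genes, 1088 kept direction and call, 33 gained a call and 36 lost one. Of the gained calls 27 came with limma. Of the lost ones 11 came with DESeq2, 8 without replicate 1, 6 without replicate 2 and 1 without replicate 3. The list counts above 1 RPKM fell by at most 1 (6 to 5 membrane-binding and 10 to 9 vesicle genes, both with DESeq2). With limma at a pseudocount of 1, the count below rose from 0 to 4 for the other S100 genes and from 1 to 8 for the partners. S100a3, S100a5, S100a7a, S100a8, S100a9 and S100g, each with few counts, were unresolved in the main edgeR fit. The part of sequencing depth in this was not tested. No paired analysis was possible because there is a single group.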
